A study of Mus musculus with 6 samples.

Results

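Forkhead transcription factors were followed in mouse BMSCs, mesenchymal stem cells grown from bone marrow, which can give rise to osteoblasts, adipocytes and chondrocytes. Members were taken by name from the table of deposited values: every symbol made of Fox, a letter from a to s and a number, with no letter after the number, and without Foxm1. This gave 31 of 22984 listed genes. The cells were of genotype Grx2-/- (3 libraries) or Grx2+/+ (3 libraries), and messenger RNA was sequenced from each library. Grx2 is glutaredoxin 2, a mitochondrial thiol-disulfide oxidoreductase encoded by Glrx2. The design text calls the cells O-BMSCs. The sources used here do not give the meaning of the prefix, the strain, sex and age of the mice, how the knockout was made, or whether the replicates were separate animals or cultures. The p-values therefore measure only the spread between these libraries, which may be technical.

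Forkhead (FOX) proteins bind DNA through a winged-helix domain of about the same fold in every member, and are sorted into lettered classes by the sequence of that domain. FOXO proteins are held out of the nucleus when insulin or growth factor signalling activates the kinase AKT, so their transcript level is only one part of their activity. FOXC, FOXF, FOXD, FOXL and FOXS proteins mark particular mesenchymal lineages during development, and in mouse marrow Foxc1 maintains the reticular stromal cells that form the niche of blood stem cells. Several FOXK, FOXJ, FOXN and FOXP proteins are expressed in many cell types, while Foxj1, Foxn1 and Foxp3 mark particular ones.

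Glrx2 was at 0.00461, 0 and 0 FPKM in Grx2-/- libraries 1 to 3, against 3.57, 3.74 and 3.54 FPKM in Grx2+/+ libraries 1 to 3. FPKM is the number of fragments scaled to the length of the gene and the depth of the library. Whole reads worked back from the FPKM values gave depths of 40797879 to 41794919 reads per library. Grx2-/- replicate 1 and Grx2+/+ replicate 2 stood furthest from the other libraries of their genotype, with chi-square values per gene of 8.74 to 21.4 against sampling noise, where the other pair of each genotype gave 4.14 and 3.72. Of all tested genes 42.7% were higher and 24.6% lower in Grx2-/- cells, by the test given below. Of 12 stromal markers, all tested, 6 were higher and 5 lower in Grx2-/- cells. The libraries also held transcripts of other cell types. Of 12 tested macrophage markers 10 were higher in Grx2-/- cells, where the list summed to 813 to 998 FPKM, against 379.97 to 402 FPKM in Grx2+/+ cells. Of 8 tested endothelial markers 7 were lower, with sums of 6.43 to 7.15 FPKM in Grx2-/- cells and 34.5 to 42.5 FPKM in Grx2+/+ cells, and Tie1 and Cldn5 were at 0 in every Grx2-/- library. The list was not uniform: Vwf did not pass (1.96 FPKM in Grx2-/- cells and 1.71 in Grx2+/+ cells), and Tek, under the filter, was at 0.609 FPKM in Grx2-/- cells and 0.265 in Grx2+/+ cells. All 8 tested neutrophil markers and all 7 tested osteoblast markers were lower in Grx2-/- cells. The neutrophil list summed to 3.18 to 3.71 FPKM in Grx2-/- cells and 887 to 2574 FPKM in Grx2+/+ cells, and the osteoblast list to 2627 to 3031 FPKM in Grx2-/- cells and 5021 to 5392 FPKM in Grx2+/+ cells. Most of the osteoblast sum was Col1a1 (2164 FPKM in Grx2-/- cells, 3757 in Grx2+/+ cells) and Spp1 (616 and 1164). The sum therefore hides wider gaps, such as Alpl at 3.66 FPKM in Grx2-/- cells and 105.5 in Grx2+/+ cells, and Sp7 at 2.61 and 38.1. Runx2 was at 5.02 and 12.6 FPKM. Bglap, Dmp1 and Phex were under the filter, with the genotypes overlapping. Markers of skeletal muscle (4 tested, 3 lower) summed to 2.46 to 3.99 FPKM in Grx2-/- cells and 3.47 to 37 FPKM in Grx2+/+ cells. Some tested markers were under 1 FPKM in Grx2-/- cells and passed the filter only through Grx2+/+ cells, which fixed their direction in advance. These were S100a9, Ngp, Ltf, Camp, Elane and Mpo (neutrophil), Ibsp (osteoblast) and Lepr (stroma). They also include Cdh5, Pecam1, Emcn, Kdr, Esam and Plvap (endothelial), and Myog, Myh3 and Tnnt3 (muscle). T lymphocyte markers (sums of at most 1.45 FPKM), ciliated cell markers (at most 1.44 FPKM), epithelial markers (at most 0.3 FPKM) and B lymphocyte markers (at most 3.34 FPKM) were low in both genotypes, and of these lists only 1 B lymphocyte gene was tested, which was higher in Grx2-/- cells. In bulk RNA, fewer cells of a type and less RNA per cell cannot be told apart.

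Among the forkhead genes above 1 FPKM, Foxs1, Foxc1 and Foxc2 were the ones furthest from their Grx2+/+ level. Foxs1, Foxc1 and Foxc2 fell by more than 2-fold in mean FPKM, while no other member above 1 FPKM differed by more than 1.48-fold. Foxf1 was higher from a low level, and Foxk2, Foxk1 and Foxo3 were among the most abundant members in both genotypes. Summed over the 31 members, forkhead transcripts came to 105.6, 96.3 and 98.2 FPKM in Grx2-/- libraries 1 to 3, against 126.2, 127.1 and 125.4 FPKM in Grx2+/+ libraries 1 to 3. Every Grx2-/- sum lay under every Grx2+/+ sum. FOXC genes made up 9.33% ± 0.455 of the summed level in Grx2-/- cells and 19.5% ± 0.137 in Grx2+/+ cells (SD, n = 3 each). Foxs1 made up 2.05% ± 0.616 in Grx2-/- cells and 6.82% ± 0.292 in Grx2+/+ cells. FOXO genes held 20.6% ± 1.2 in Grx2-/- cells and 15.8% ± 0.366 in Grx2+/+ cells, and FOXJ genes 15.3% ± 0.457 in Grx2-/- cells and 10.3% ± 0.221 in Grx2+/+ cells. FOXN genes held 10.7% ± 0.495 in Grx2-/- cells and 7.93% ± 0.0864 in Grx2+/+ cells. FOXK genes held the largest share, 28.4% ± 0.518 in Grx2-/- cells and 26.3% ± 0.323 in Grx2+/+ cells. The shares are of a sum that was itself lower in Grx2-/- cells, so a larger share need not mean more transcript. Mean FPKM of Foxk2 was 17.9 in Grx2-/- cells and 21 in Grx2+/+ cells, and that of Foxk1 10.5 and 12.2. Ranked by mean FPKM, Foxk2 was first in both genotypes, while Foxc1 was ninth in Grx2-/- cells and second in Grx2+/+ cells, and Foxs1 was fifteenth in Grx2-/- cells and sixth in Grx2+/+ cells.

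**Figure D1:**
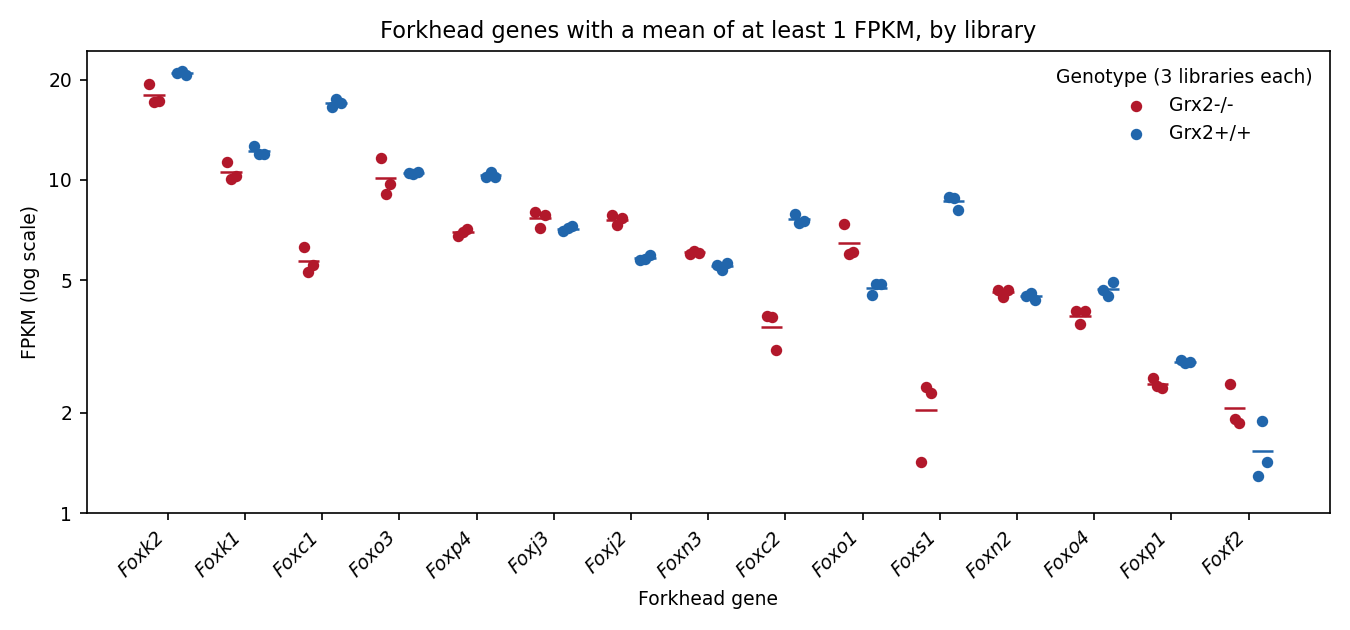
FPKM on a log axis of the 15 forkhead genes with a mean of at least 1 FPKM, for each of 3 Grx2-/- and 3 Grx2+/+ libraries (points) with the mean of each genotype (lines). Foxs1, Foxc1 and Foxc2 have the widest gaps between the genotypes.

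A mean of at least 1 FPKM over the 6 libraries was reached by 15 members, each with a mean above 1 FPKM in both genotypes, and these were tested. The other 16 were under it in every library, with a highest value of 0.882 FPKM. Foxf2 was the lowest member above the threshold (1.8 FPKM over all libraries) and Foxp2 (0.525) and Foxq1 (0.495) the highest below it. The test was limma with trend on log2(FPKM + 1), two-sided, Benjamini-Hochberg adjusted over all 11083 genes tested, with a threshold of adjusted p under 0.05. Among the 15 members, 4 rose, 8 fell and 3 missed the threshold. The 12 called members are 80% of those tested, and 67.4% of all tested genes were called. Members lower in Grx2-/- cells made up 53.3%, where 24.6% of all tested genes were lower, and members higher made up 26.7%, where 42.7% of all tested genes were higher. The median log2 fold change of the tested members was -0.16, against 0.085 for all tested genes. Without regard to sign, the medians were 0.217 for members and 0.243 for all tested genes. The genotypes did not overlap for 11 of the 15 members, and for 73.1% of all tested genes. Under median-of-ratios scaling, as under quantile normalization, 2 members were called higher and 8 lower. The calls over all tested genes moved as well, to 3786 higher and 3575 lower under the first and 3413 higher and 3945 lower under the second, against 4737 higher and 2728 lower without scaling.

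**Figure D2:**
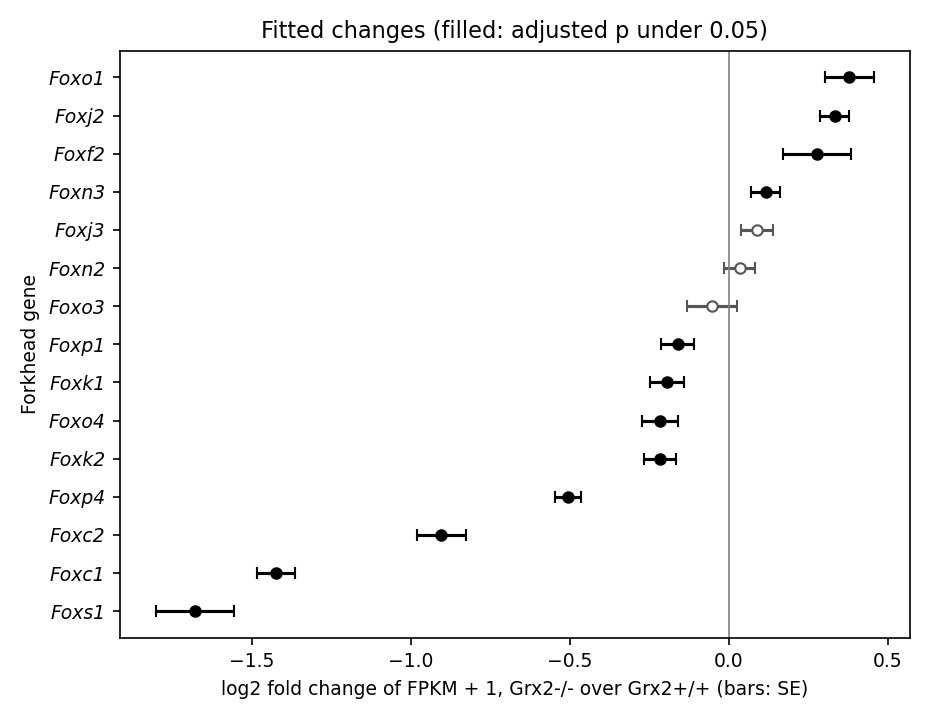
Log2 fold change of FPKM + 1, Grx2-/- over Grx2+/+, for the 15 tested forkhead genes, with SE bars from limma. Filled points have an adjusted p under 0.05, 8 of them below 0 and 4 above 0, and open points (Foxj3, Foxn2 and Foxo3) do not.

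Foxs1, a forkhead gene found in mouse in cells around blood vessels and in precursors of sensory neurons, had the largest fitted change among the 15 tested members. It was at 1.42, 2.39 and 2.29 FPKM in Grx2-/- libraries 1 to 3, against 8.86, 8.85 and 8.14 FPKM in Grx2+/+ libraries 1 to 3. All Grx2-/- values lay far below all Grx2+/+ values, and Grx2-/- replicate 1 was the lowest. The mean was lower in Grx2-/- cells by a factor of 4.24 (log2 fold change -1.68 ± 0.122 SE, limma adjusted p = 7.91e-06). The call rests on 78, 129 and 123 reads in Grx2-/- libraries and 474, 478 and 442 reads in Grx2+/+ libraries. Pericytes are the cells around small vessels, and of 4 tested genes on a list of pericyte markers added after these values were seen, 0 rose, 3 fell and 1 did not pass. Of all tested genes 42.7% were higher and 24.6% lower. That list summed to 62.9 to 74.4 FPKM in Grx2-/- cells and 93.6 to 99.3 FPKM in Grx2+/+ cells. The largest part of the sum was Pdgfrb, also on the stromal list, at 45 FPKM in Grx2-/- cells and 59.2 in Grx2+/+ cells. The pericyte markers were uneven. Mcam was at 1.09 FPKM in Grx2-/- cells and 13.6 in Grx2+/+ cells, and Cspg4 at 18.3 FPKM in Grx2-/- cells and 17.3 in Grx2+/+ cells. The part of a change in cell makeup in the Foxs1 result was not tested.

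Foxc1 and Foxc2, closely related regulators of mesoderm, skeleton and vessels, both fell. Foxc1 was at 6.28, 5.3 and 5.56 FPKM in Grx2-/- libraries 1 to 3, against 16.5, 17.5 and 17 FPKM in Grx2+/+ libraries 1 to 3. The mean was lower by a factor of 2.97 (log2 fold change -1.42 ± 0.0604 SE, limma adjusted p = 4e-07). Foxc2, which in mouse is needed for lymphatic valves and skeletal patterning, was at 3.91, 3.89 and 3.09 FPKM in Grx2-/- libraries, against 7.91, 7.44 and 7.54 FPKM in Grx2+/+ libraries. The genotypes were apart for both genes, and Foxc2 was lower by a factor of 2.1 (-0.9 ± 0.0777 SE, limma adjusted p = 2.11e-05). With Foxs1 these are the 3 of 15 tested members whose mean differed by more than 2-fold, as it did for 13.8% of all tested genes. Lepr, the leptin receptor, which like Foxc1 marks reticular stromal cells of mouse marrow, was at 0.0351 FPKM in Grx2-/- cells and 3.83 FPKM in Grx2+/+ cells. Cxcl12, the chemokine those cells are named for, was at 95.1 FPKM in Grx2-/- cells and 106 FPKM in Grx2+/+ cells (log2 fold change -0.15, limma adjusted p = 0.186). Other genes of the stromal list were higher in Grx2-/- cells, such as Vcam1 at 56.8 FPKM in Grx2-/- cells and 15.3 FPKM in Grx2+/+ cells, and Pdgfra at 21.96 FPKM in Grx2-/- cells and 7.7 FPKM in Grx2+/+ cells. Endothelial and osteoblast markers were lower in the same libraries, as given above, and their part in the FOXC results was not tested.

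Several members lie next to each other on mouse chromosomes 8 and 13, and the neighbours on chromosome 8 did not move as a block. On chromosome 13 Foxq1 and Foxc1 both fell, and only Foxf2, between them, did not. On chromosome 8 the order is Foxf1, Foxc2, Foxl1, and on chromosome 13 it is Foxq1, Foxf2, Foxc1, in the RefSeq table of GRCm38.p6. No other protein-coding gene starts between the chromosome 13 genes or between Foxc2 and Foxl1, and 1 starts between Foxf1 and Foxc2. Foxf1 and Foxf2 are mesenchymal genes that respond to Hedgehog signals in mouse gut and lung. Foxf1 was at 0.651, 0.611 and 0.814 FPKM in Grx2-/- libraries 1 to 3, against 0.0505, 0.1 and 0.0896 FPKM in Grx2+/+ libraries 1 to 3. Its reads numbered 66, 61 and 81 in Grx2-/- libraries, against 5, 10 and 9 in Grx2+/+ libraries. So Foxf1 stood 8.65-fold higher in mean FPKM beside a Foxc2 that fell. Foxl1, which marks mesenchymal cells under the mouse gut epithelium, was at 0.178, 0.443 and 0.28 FPKM in Grx2-/- libraries and 0.315, 0.32 and 0.253 FPKM in Grx2+/+ libraries, with the genotypes overlapping. Foxq1, tested below, was at 0.264, 0.182 and 0.226 FPKM in Grx2-/- libraries, against 0.882, 0.614 and 0.8 FPKM in Grx2+/+ libraries. Foxf2 was at 2.44, 1.91 and 1.87 FPKM in Grx2-/- libraries, against 1.29, 1.89 and 1.43 FPKM in Grx2+/+ libraries. The genotypes overlapped at Grx2+/+ replicate 2, and Foxf2 passed narrowly (log2 fold change 0.28 ± 0.106 SE, limma adjusted p = 0.0475). Without any 1 library other than Grx2+/+ replicate 2 its adjusted p ran from 0.0577 to 0.147, and the call was lost. The Foxf2 call was also lost in the limma voom fit on reads that is given below for Foxf1 (adjusted p = 0.0574). The ratio of Foxc1 to Foxf2 FPKM was 2.58, 2.77 and 2.98 in Grx2-/- libraries, against 12.7, 9.25 and 11.9 in Grx2+/+ libraries. The ratio of Foxc2 to Foxf1 FPKM was 6, 6.36 and 3.79 in Grx2-/- libraries, against 156, 74.3 and 84.1 in Grx2+/+ libraries.

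**Figure D3:**
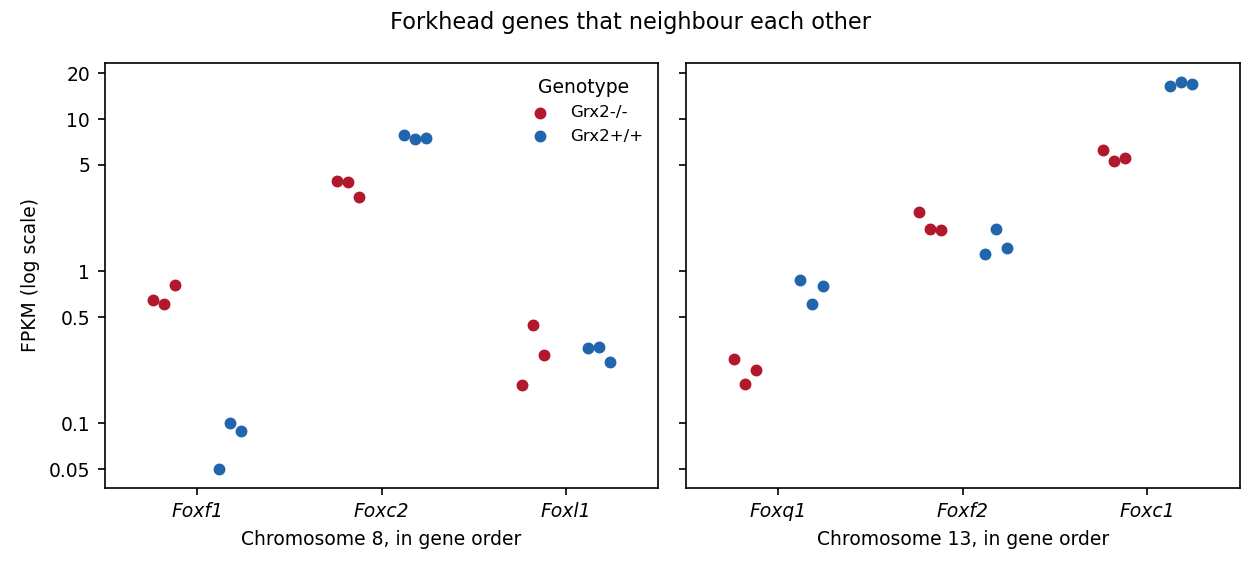
FPKM on a log axis of 6 forkhead genes in their order along chromosome 8 (left) and chromosome 13 (right), for each Grx2-/- and Grx2+/+ library (points). Foxf1 is higher in Grx2-/- libraries, Foxc2, Foxq1 and Foxc1 are lower, and the genotypes overlap for Foxl1 and Foxf2.

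The windows before the starts of Foxc1, which fell, and of its neighbour Foxf2, whose narrow call is given above, and of Foxo1, which rose, and Foxp4, which fell, are given to show what precedes these genes. Each is the 250 bases before the start in RefSeq on GRCm38.p6, read 5′ to 3′ on the gene's strand, with CCAAT and GGGCGG on either strand in capitals.
Foxc1 (chr13:31806396-31806645, + strand): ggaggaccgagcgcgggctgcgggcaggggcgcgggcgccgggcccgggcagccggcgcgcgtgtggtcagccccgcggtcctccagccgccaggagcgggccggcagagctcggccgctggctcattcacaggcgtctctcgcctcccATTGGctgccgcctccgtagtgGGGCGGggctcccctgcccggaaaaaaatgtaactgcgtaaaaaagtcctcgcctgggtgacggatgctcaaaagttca
Foxf2 (chr13:31625566-31625815, + strand): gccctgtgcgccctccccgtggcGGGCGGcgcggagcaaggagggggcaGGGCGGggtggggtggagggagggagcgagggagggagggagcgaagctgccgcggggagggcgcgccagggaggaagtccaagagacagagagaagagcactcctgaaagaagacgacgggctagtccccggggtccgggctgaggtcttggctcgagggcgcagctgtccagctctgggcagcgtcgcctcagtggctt
Foxo1 (chr3:52268087-52268336, + strand): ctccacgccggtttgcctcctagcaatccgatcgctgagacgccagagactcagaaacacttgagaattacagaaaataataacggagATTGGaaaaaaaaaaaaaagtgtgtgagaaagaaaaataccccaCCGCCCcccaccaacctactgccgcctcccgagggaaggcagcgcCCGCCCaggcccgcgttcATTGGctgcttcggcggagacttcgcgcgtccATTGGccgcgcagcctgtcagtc
Foxp4 (chr17:47924633-47924882, - strand): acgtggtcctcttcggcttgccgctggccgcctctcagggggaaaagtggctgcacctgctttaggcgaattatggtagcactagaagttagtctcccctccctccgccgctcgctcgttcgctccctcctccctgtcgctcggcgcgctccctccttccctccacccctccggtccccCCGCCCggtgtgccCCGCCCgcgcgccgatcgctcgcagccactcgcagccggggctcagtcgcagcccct

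The Foxc1, Foxf2 and Foxp4 windows were 70.8%, 71.6% and 69.6% G or C, and the Foxo1 window 56%. GGGCGG occurred once in the Foxc1 window and 2 times in each of the others, and CCAAT once for Foxc1 and 3 times for Foxo1. RefSeq windows were on hand for 19 of the 31 members, 24 windows in all, of which 18 held GGGCGG and 10 held CCAAT. Of all 32851 windows of this length in the table, 32.7% held GGGCGG and 33.8% held CCAAT. The forkhead motif GTAAACA, searched on both strands, was in 1 of the 24 member windows (Foxa1) and in 3.17% of all windows. Its shorter form TAAACA, which lies within it, was in 5 member windows and 12% of all windows. All 3 start windows of Foxp1 held TAAACA, as did that of Foxa1 and 1 of the 2 of Foxp3. TGACNNNGC, the core of the element bound by the oxidative stress regulator NRF2, was in 1 member window (Foxd3) and 10.2% of all windows. These are matches of letters and were not tested for binding.

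The FOXO genes, which in mouse osteoblasts and other cells induce antioxidant and cell cycle inhibitor genes, did not share a direction. Foxo1 rose, at 7.38, 6.01 and 6.06 FPKM in Grx2-/- libraries 1 to 3, against 4.5, 4.86 and 4.86 FPKM in Grx2+/+ libraries 1 to 3 (log2 fold change 0.38 ± 0.0772 SE, limma adjusted p = 0.00283). All Grx2-/- values were above all Grx2+/+ values. Foxo4, on the X chromosome, fell, at 4.04, 3.69 and 4.03 FPKM in Grx2-/- libraries, against 4.68, 4.49 and 4.95 FPKM in Grx2+/+ libraries (-0.22 ± 0.0567 SE, limma adjusted p = 0.01). Foxo3, the most abundant FOXO gene in both genotypes, was at 11.6, 9.06 and 9.72 FPKM in Grx2-/- libraries, against 10.5, 10.4 and 10.5 FPKM in Grx2+/+ libraries, and did not pass (-0.053 ± 0.0787 SE, limma adjusted p = 0.567). Its Grx2+/+ values were the tightest of the family, and its Grx2-/- values lay on both sides of them. Without Grx2-/- replicate 1 Foxo3 passed toward lower (-0.15, limma adjusted p = 0.0239), and without Grx2-/- replicate 2 the sign turned (0.016, limma adjusted p = 0.858). Foxo1 held 31.4% ± 0.836 of the summed FOXO level in Grx2-/- cells and 23.7% ± 0.857 in Grx2+/+ cells (SD, n = 3 each). Foxo6, a FOXO gene best known from mouse neurons, was under 0.11 FPKM in every library.

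Genes that FOXO proteins are known to activate moved both ways. Of 30 textbook targets 24 were tested, of which 9 rose, 10 fell and 5 did not pass, with a median log2 fold change of 0.063 against 0.085 for all tested genes and a mean of the other sign (-0.03). The called targets are 79.2% of those tested, where 67.4% of all tested genes were called. Txnip, an inhibitor of thioredoxin, was at 150.4 ± 14.7 FPKM in Grx2-/- cells and 50.2 ± 2.48 FPKM in Grx2+/+ cells (SD, n = 3 each), and Cat, catalase, at 81.8 ± 1.04 FPKM in Grx2-/- cells and 38.9 ± 1.71 FPKM in Grx2+/+ cells. Pdk4, which inhibits pyruvate dehydrogenase, was at 4.55 ± 0.58 FPKM in Grx2-/- cells and 27.1 ± 1.53 FPKM in Grx2+/+ cells, and Fbxo32, the muscle atrophy ubiquitin ligase atrogin-1, at 1.06 ± 0.203 FPKM in Grx2-/- cells and 4.45 ± 0.267 FPKM in Grx2+/+ cells. All 4 passed, Txnip (1.56) and Cat (1.06) higher and Pdk4 (-2.34) and Fbxo32 (-1.41) lower on the log2 scale, and many of the targets answer to other regulators too. Of 30 genes upstream of FOXO, all tested, 11 rose, 8 fell and 11 did not pass (63.3% called, median log2 fold change 0.027). Irs1, the adaptor of the insulin and IGF1 receptors, was at 7.43 ± 0.69 FPKM in Grx2-/- cells and 18.6 ± 0.301 FPKM in Grx2+/+ cells (-1.22), and Igf1r, the IGF1 receptor, had -0.36. Ywhah, a 14-3-3 protein of the kind that holds phosphorylated FOXO in the cytoplasm, was higher (0.74), as was Pik3cb, a catalytic subunit of phosphoinositide 3-kinase (0.38). Under median-of-ratios scaling 6 upstream genes were higher and 11 lower, and under quantile normalization 6 were higher and 13 lower.

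Of 14 Hedgehog pathway genes, whose signal induces Foxf1, Foxf2 and Foxl1 in mouse gut, 7 were tested, of which 5 rose, 2 fell and 0 did not pass, where 42.7% of all tested genes were higher and 24.6% lower. The median log2 fold change of the 7 was 0.34, against 0.085 for all tested genes. The receptor Ptch1, itself a Hedgehog target, was at 2.2 ± 0.323 FPKM in Grx2-/- cells and 11.9 ± 0.347 FPKM in Grx2+/+ cells (log2 fold change -2.01). The coreceptors Gas1, Cdon and Boc were higher, by 2.48, 1.32 and 0.94 on the log2 scale. Gas1 was at 103.6 ± 7.19 FPKM in Grx2-/- cells and 17.7 ± 1.18 FPKM in Grx2+/+ cells. Gli1, another target, was at 0.0132 FPKM in Grx2-/- cells and 0.102 FPKM in Grx2+/+ cells, and Shh, Ihh and Dhh, the ligands, were at most at 0.0243 FPKM in any library. Foxf1 was higher in the same Grx2-/- libraries, and a link between Hedgehog signals and the Foxf1 level was not tested.

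FOXK genes, broadly expressed regulators of glycolysis and autophagy genes, fell slightly. Foxk2 was at 19.4, 17.1 and 17.3 FPKM in Grx2-/- libraries 1 to 3, against 20.9, 21.2 and 20.7 FPKM in Grx2+/+ libraries 1 to 3 (log2 fold change -0.22 ± 0.0509 SE, limma adjusted p = 0.00578). Foxk1 was at 11.3, 10.1 and 10.2 FPKM in Grx2-/- libraries, against 12.7, 12 and 12 FPKM in Grx2+/+ libraries (-0.19 ± 0.0529 SE, limma adjusted p = 0.0117). For both genes the highest Grx2-/- value, that of replicate 1, was under the lowest Grx2+/+ value.

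FOXP genes encode repressors that pair through a leucine zipper, and the tested ones, Foxp4 and Foxp1, fell. Foxp4 was at 6.8, 7 and 7.12 FPKM in Grx2-/- libraries 1 to 3, against 10.2, 10.5 and 10.2 FPKM in Grx2+/+ libraries 1 to 3 (log2 fold change -0.51 ± 0.042 SE, limma adjusted p = 1.72e-05). Foxp1, which in mouse is needed for B cell and heart development, was at 2.54, 2.41 and 2.38 FPKM in Grx2-/- libraries, against 2.89, 2.82 and 2.84 FPKM in Grx2+/+ libraries (-0.16 ± 0.0512 SE, limma adjusted p = 0.0234). The genotypes did not overlap for either gene. The Foxp1 call did not hold without Grx2-/- replicate 2 or 3 or without Grx2+/+ replicate 1 or 3, with adjusted p of 0.0607 to 0.0845. Foxp1 gave 3168 to 3825 reads per library, about the number of Foxk1, and its FPKM is lower because the values imply a gene length of 32491 bases for Foxp1 and 7469 bases for Foxk1. Foxp2, known for its role in speech circuits, was at 0.415, 0.472 and 0.508 FPKM in Grx2-/- libraries, against 0.576, 0.652 and 0.53 FPKM in Grx2+/+ libraries, and was under the filter.

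FOXJ and FOXN members rose slightly or did not pass. Foxj2, a gene needed for mouse spermatogenesis, rose, at 7.83, 7.3 and 7.68 FPKM in Grx2-/- libraries 1 to 3, against 5.75, 5.78 and 5.96 FPKM in Grx2+/+ libraries 1 to 3 (log2 fold change 0.33 ± 0.0464 SE, limma adjusted p = 0.00035). The genotypes were far apart relative to the spread of either. Foxj3, a regulator of Mef2c in mouse muscle, was at 8.01, 7.15 and 7.83 FPKM in Grx2-/- libraries and 7.03, 7.15 and 7.25 FPKM in Grx2+/+ libraries, and did not pass (0.089 ± 0.0518 SE, limma adjusted p = 0.162). Without Grx2-/- replicate 2, its lowest Grx2-/- value, Foxj3 passed (0.13, limma adjusted p = 0.0495). Foxn3, a repressor linked to cell cycle checkpoints, was at 5.99, 6.13 and 6.05 FPKM in Grx2-/- libraries, against 5.56, 5.35 and 5.63 FPKM in Grx2+/+ libraries. Its genotypes did not overlap, and it stood at the edge of the threshold (0.12 ± 0.045 SE, limma adjusted p = 0.049999). Without any 1 of the 6 libraries the adjusted p of Foxn3 was 0.0535 to 0.128, so that call is not firm. Foxn2 was at 4.68, 4.46 and 4.66 FPKM in Grx2-/- libraries and 4.49, 4.56 and 4.35 FPKM in Grx2+/+ libraries, and did not pass (0.034 ± 0.048 SE, limma adjusted p = 0.553). The sign of Foxn2 turned with median-of-ratios scaling (-0.04) and with quantile normalization (-0.075).

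The 16 members under 1 FPKM include genes that define other tissues, and a few genes whose reads differed between the genotypes. Of these members 12 had at least 10 reads over the 6 libraries. They were tested with limma's voom on the recovered reads of 17328 genes, a fit chosen after these values were seen: 2 rose, 2 fell and 8 did not pass. Of all genes in that fit 56.4% were called, 33.7% higher and 22.7% lower. That fit also holds the genes above 1 FPKM, so its shares are not a like background for these members. The share among genes under 1 FPKM alone was not counted. The members that rose were Foxf1 (log2 fold change 3.08 ± 0.374 SE, limma adjusted p = 6.87e-05) and Foxd2 (1.25 ± 0.352 SE, limma adjusted p = 0.0122). Foxd2, a relative of Foxd1 expressed in embryonic mesenchyme, had 35, 49 and 30 reads in Grx2-/- libraries 1 to 3, against 17, 19 and 11 reads in Grx2+/+ libraries 1 to 3. Foxq1, which in mouse is known from hair and stomach, fell, with 31, 21 and 26 reads in Grx2-/- libraries, against 101, 71 and 93 reads in Grx2+/+ libraries (-1.75 ± 0.272 SE, limma adjusted p = 0.000372). Foxd1, a marker of the stromal progenitors of the mouse kidney, fell, with 4, 6 and 1 reads in Grx2-/- libraries, against 28, 31 and 22 reads in Grx2+/+ libraries (-2.95 ± 0.55 SE, limma adjusted p = 0.0012). The genotypes did not overlap for any of these 4 genes, but this does not set them apart. Of the 12 members, 7 did not overlap, among them Foxp2, Foxo6 and Foxn1, which did not pass. Among all genes tested above 1 FPKM the share was 73.1%. Foxl1 (-0.066, limma adjusted p = 0.885), Foxp2 (-0.33, limma adjusted p = 0.0834) and Foxo6 (1.18, limma adjusted p = 0.0564) did not pass.

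**Figure D4:**
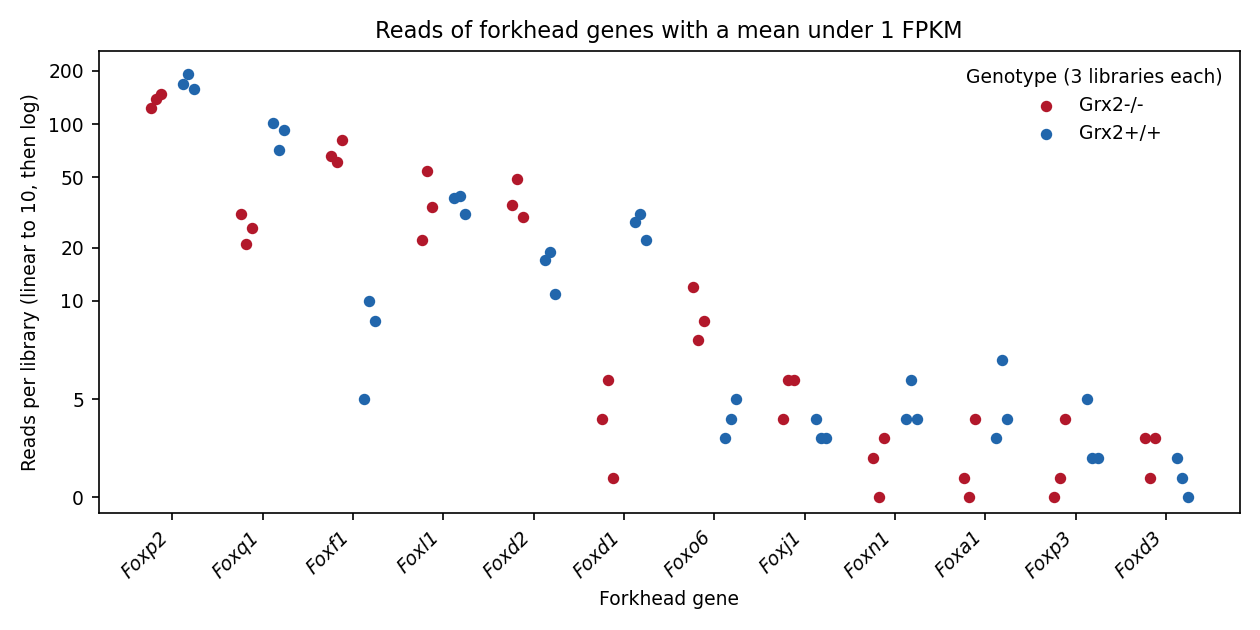
Reads per library of the 12 forkhead genes with a mean under 1 FPKM and at least 10 reads, for each Grx2-/- and Grx2+/+ library (points), on an axis that is linear up to 10 reads and logarithmic above. Foxf1 and Foxd2 have more reads in Grx2-/- libraries, and Foxq1 and Foxd1 fewer.

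Genes that mark unrelated tissues had few reads. Foxp3, which defines regulatory T cells, had 0, 1 and 4 reads in Grx2-/- libraries 1 to 3 and 5, 2 and 2 reads in Grx2+/+ libraries 1 to 3. Foxn1, the regulator of the thymic epithelium, had 2, 0 and 3 reads in Grx2-/- libraries and 4, 6 and 4 reads in Grx2+/+ libraries. Foxj1, the regulator of motile cilia, had 16 reads over the Grx2-/- libraries and 10 over the Grx2+/+ libraries. Foxa1, a pioneer factor of endoderm, had 5 reads over the Grx2-/- libraries and 14 over the Grx2+/+ libraries, and Foxd3, a neural crest gene, 7 over the Grx2-/- libraries and 3 over the Grx2+/+ libraries. None of these 5 passed, with limma adjusted p of 0.0948 to 0.355. Foxa2 and Foxa3, also of endoderm, and Foxl2, of the ovary, had 0 reads over the Grx2-/- libraries and 1 over the Grx2+/+ libraries, and Foxh1, a partner of SMAD proteins, had 1 over the Grx2-/- libraries and 0 over the Grx2+/+ libraries. A count of 0 in a library allows up to 3 reads, so a difference in these genes was not detectable at this depth. Such limits cover counting error only.

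Among the tested members, replicate spread was mostly wider in the Grx2-/- libraries. The members share the same 3 libraries per genotype, and the same count over all tested genes was not made. The coefficient of variation of FPKM among the 15 tested members ran from 1.21% (Foxn3) to 26.1% (Foxs1) in Grx2-/- cells and from 0.446% (Foxo3) to 20.2% (Foxf2) in Grx2+/+ cells, and it was larger in Grx2-/- cells for 13 of the 15. Of the 3 Grx2-/- libraries, replicate 1 had the highest value for 12 of the 15 members and the lowest for the other 3, Foxs1, Foxp4 and Foxn3. Without that library 2 tested members rose and 9 fell.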

How the data were processed

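The authors deposited FPKM values, fragments scaled to gene length and library depth, for 22984 gene symbols in 6 libraries. Per the labels' protocols, total RNA was extracted with TRIzol and libraries were made with a VAHTS RNA-seq kit. The tools named are HISAT2, HTSeq and R 3.2.0 and the build GRCm39, per the submitters' processing notes. The sources used here do not give the annotation, filters or strand setting, so reads of overlapping genes cannot be told apart: 11 members overlap another gene in RefSeq (Foxj2, Foxn2, Foxn3, Foxo3 and Foxp1 among the 15 tested, and 6 others). FPKM does not correct for a shift in composition between libraries.

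Genes with a mean of at least 1 FPKM were fitted as log2(FPKM + 1) with limma 3.58.1 in R 4.3.3 (lmFit, eBayes with trend), Grx2-/- over Grx2+/+, with Benjamini-Hochberg adjustment over 11083 genes. A fold change on this scale understates the change of low genes. Whole reads, the lowest whole numbers that give the values, came out for 22982 genes within 1e-06 reads. Reads were used with voom, and the script was tested on simulated data. The forkhead genes, the lists (FOXO targets, FOXO regulators, Hedgehog pathway, and markers of stroma, macrophages, endothelium, neutrophils, osteoblasts, skeletal muscle, T and B lymphocytes, ciliated cells and epithelium) and the tests were chosen with earlier results of these data known. A pericyte list was added after the values were seen. Named genes are all members and up to 4 genes of each pathway list with the smallest p. Lepr, Cxcl12, Gli1, the Hedgehog ligands, Vcam1, Pdgfra, Pdgfrb, Mcam, Cspg4, Tie1, Cldn5, Vwf and Tek were named after their values were seen. The same holds for the osteoblast markers Col1a1, Spp1, Alpl, Sp7, Runx2, Bglap, Dmp1 and Phex. So were the tested markers under 1 FPKM in Grx2-/- cells. Promoter windows came from RefSeq on GRCm38.p6, another build than that of the values. Figures were drawn with matplotlib 3.10.9.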

Additional observations from a re-analysis of the deposited data

How the results depend on the processing

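Each of the 15 tested members was refitted under 17 or 18 alternatives, of which at most 16 were planned, and 232 of 266 refits left direction and side of the threshold unchanged. Foxc1, Foxc2, Foxs1, Foxp4, Foxk1, Foxk2, Foxo1, Foxo4 and Foxj2 kept both in every alternative in which they were tested. The 4 members that rose became 2 with a mean of at least 5 FPKM, which leaves 11 members, and 2 with median-of-ratios scaling, quantile normalization or the replicate block. With 1 library left out 2 to 3 rose, Foxj3 among them without Grx2-/- replicate 2. The calls lost under these settings were those of Foxf2 and Foxn3, except that Foxf2 fails the 5 FPKM filter and so was not tested under it. Leaving out 1 library, 7 to 9 fell. The median log2 fold change of the members (-0.16) was -0.0057 with no filter, -0.23 with median-of-ratios scaling and -0.27 with quantile normalization, which moved the median of all tested genes by -0.112. These scalings called 3786 genes higher and 3575 lower, and 3413 and 3945, against 4737 and 2728 without scaling. Foxj3 turned with quantile normalization (-0.024), Foxn2 with both scalings (-0.040 and -0.075), and Foxo3, left out 1 library at a time, ran from -0.15 to 0.016. FOXO targets that fell numbered 6 with no filter, against 10, FOXO regulators that fell 4 at 5 FPKM, against 8, and Hedgehog genes that fell 4 with no filter or with voom at 10 reads, against 2. Beyond the construction of the alternatives, the cause was not tested. Without both libraries that stand apart, chosen after the data were seen, 3 members rose and 9 fell.

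Whether equal replicate numbers pair the libraries was not settled. Same-numbered deviations correlated at 0.107, 0.124 and 0.0199, and differently numbered ones at -0.129 to 0.0598. With 3 libraries per genotype these values cannot exclude a pairing. With the replicate block 2 members rose and 8 fell, and Foxf2 (adjusted p = 0.0579 by limma) and Foxn3 (0.0837) lost their calls.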
